A study of Homo sapiens with 6 samples.

Results

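MIR210HG, LUCAT1, LINC01615, LINC02970, PDK1-AS1, SAP30-DT, NEAT1 and MALAT1 are 8 long noncoding RNA (lncRNA) genes, and all 8 had a row in a table of 22153 genes, 4905 of them lncRNA genes. They were picked by name, MIR210HG and other lncRNA genes for their higher level in hypoxia in these same libraries and NEAT1 and MALAT1 as the pair of abundant nuclear lncRNAs next to each other on chromosome 11. Their differences between hypoxia and normoxia are therefore a description. Counts of them past a test's threshold are given once, beside the share of all genes, and no result rests on them. Test results are read only for the neighbouring coding genes and for gene lists. The lists were chosen with earlier results of these data known, which limits what their counts can show. The cells are EA.hy926, a permanent human line derived by hybridising endothelial cells of the umbilical vein with A549 lung carcinoma cells. The hypoxia group is 3 libraries, from cells exposed to 1% oxygen during 8 h in a tri-gas incubator, and the normoxia group is 3 libraries, from cells at 20% oxygen, with no other treatment or genetic change named in the labels. All libraries come from this 1 line, RNA was polyadenylated, and the labels do not say whether replicates were separate cultures. Every p-value rests on the spread among these libraries alone, which may be technical.

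A lncRNA is a transcript with no known protein product. Some act in the nucleus where they are made, some are only the precursor of a small RNA, and for many no role is known. At low oxygen the hypoxia-inducible factors (HIF) bind a short DNA core near their target genes, and MIR210HG is a well known target whose transcript carries miR-210, a microRNA that lowers mitochondrial iron-sulfur cluster assembly and other mitochondrial functions in hypoxic endothelial cells. PDK1-AS1 and SAP30-DT are named for their neighbours, PDK1, a kinase that shuts off pyruvate dehydrogenase, and SAP30, a subunit of the Sin3 histone deacetylase complex. NEAT1 is the scaffold of nuclear paraspeckles and MALAT1 lies in nuclear speckles. The long form of NEAT1 and mature MALAT1 end in a triple helix and carry no conventional poly(A) tail, so poly(A) libraries sample them only in part.

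The product that MIR210HG is named for is shown first. In RefSeq (GRCh38.p14) the miR-210 hairpin lies at chr11:568089-568198 on the minus strand, inside the MIR210HG gene, and it gives the mature forms below, with the seed (bases 2 to 8) in capitals.

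hsa-miR-210-3p: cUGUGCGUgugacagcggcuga

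hsa-miR-210-5p: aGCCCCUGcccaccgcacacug

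Promoter windows of 300 bases, from 250 before to 50 after a gene's RefSeq start, were found for 7 of the 8 genes. Each was searched on both strands for the HIF core, written ACGTG or GCGTG and read on the other strand as CACGT or CACGC. Those of the 4 genes with at least 2 matches and a higher level in all hypoxia libraries are shown on the gene's own strand, with matches in capitals. They are MIR210HG at chr11:568408-568707, PDK1-AS1 at chr2:172556415-172556714, SAP30-DT at chr4:173369745-173370044 and LINC01615 at chr6:169162252-169162551, all on the minus strand.

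MIR210HG: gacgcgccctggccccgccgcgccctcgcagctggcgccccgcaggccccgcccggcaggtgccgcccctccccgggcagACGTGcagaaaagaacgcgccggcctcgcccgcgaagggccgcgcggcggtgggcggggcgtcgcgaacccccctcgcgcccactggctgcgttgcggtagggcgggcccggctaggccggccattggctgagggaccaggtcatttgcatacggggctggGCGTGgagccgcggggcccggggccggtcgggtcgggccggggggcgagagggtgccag

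PDK1-AS1: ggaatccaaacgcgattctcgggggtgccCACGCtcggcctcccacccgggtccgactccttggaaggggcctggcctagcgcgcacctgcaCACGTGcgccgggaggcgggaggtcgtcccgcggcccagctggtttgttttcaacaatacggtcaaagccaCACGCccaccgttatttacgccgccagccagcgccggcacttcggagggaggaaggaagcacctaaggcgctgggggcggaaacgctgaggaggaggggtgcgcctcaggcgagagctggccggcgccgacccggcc

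SAP30-DT: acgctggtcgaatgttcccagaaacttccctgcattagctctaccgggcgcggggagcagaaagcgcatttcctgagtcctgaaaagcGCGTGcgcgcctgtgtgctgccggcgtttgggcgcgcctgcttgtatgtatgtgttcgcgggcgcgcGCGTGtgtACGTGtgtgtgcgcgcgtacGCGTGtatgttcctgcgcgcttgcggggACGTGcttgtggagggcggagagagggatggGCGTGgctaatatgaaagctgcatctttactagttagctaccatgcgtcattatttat

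LINC01615: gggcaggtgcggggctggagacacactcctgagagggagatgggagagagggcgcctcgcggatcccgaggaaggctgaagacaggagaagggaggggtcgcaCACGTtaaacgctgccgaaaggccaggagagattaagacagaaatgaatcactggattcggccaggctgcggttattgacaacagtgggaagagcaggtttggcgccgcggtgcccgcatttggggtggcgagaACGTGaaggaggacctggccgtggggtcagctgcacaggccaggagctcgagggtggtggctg

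With positions counted from the RefSeq start, the matches of MIR210HG begin at -170 and -9 and those of LINC01615 at -147 and -13. The matches of PDK1-AS1 begin at -221, -158, -157 and -87, the middle pair being the palindrome CACGTG read on both strands. SAP30-DT held 6, at -162, -95, -87, -67, -39 and -8. Of 35116 RefSeq promoter windows, 48.4% held at least 1 match, 23.1% at least 2, 4.4% at least 4 and 0.923% at least 6. The count depends on base composition. Among windows with a GC content of 50% to 60%, where the SAP30-DT window lies (58.3%), 0.442% held at least 6, and among those of 60% to 70%, where the PDK1-AS1 window lies (69.0%), 7.29% held at least 4. At least 2 matches, as in LINC01615 (62.3%) and MIR210HG (80.0%), were held by 34.1% of windows of 60% to 70% and by 31.1% of those of 80% to 90%. Windows with no match were those of LUCAT1 and LINC02970 and a second RefSeq start of LINC01615, while a second start of SAP30-DT held 1 and the 2 starts of MALAT1 held 2 and 1. The shares above are per window and do not allow for showing the richer window of SAP30-DT and of LINC01615. For the coding genes RASSF7, SLCO4A1, HMGB2 and GATA5, which lie next to these genes, no window was found. Of these, RASSF7 was higher in every hypoxia library. In the windows found for other coding genes next to the 8 genes, match counts did not follow the levels. Those of FRMD8 and LYSMD3, whose hypoxia and normoxia values overlapped, held 3 matches each, while PHRF1 and AFDN, also overlapping, held 0. Of genes higher in every hypoxia library, ARRDC3 held 0, and PDK1 held 0 at 1 start and 2 at another. The window found for SAP30, chr4:173370704-173371003, also held 0, but its count depends on the start used. The SAP30-DT window with 6 matches spans chr4:173369969, where SAP30 starts in the gene positions given below. No window was searched from that start, so the 0 of SAP30 is not read as a lack of matches near it. A match is a string of letters and not a measured binding site.

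Of the 8 genes, 6 had higher values in every hypoxia library than in any normoxia library. These were MIR210HG, PDK1-AS1, LUCAT1, SAP30-DT, LINC02970 and LINC01615, with ratios of group means from 17.2 down to 3.10. NEAT1 and MALAT1 had groups that overlapped. Values are the deposited read counts per gene divided by 1 size factor per library, called scaled reads here. Among the 1143 lncRNA genes with at least 50 reads over the 6 libraries, 6.39% had groups apart with hypoxia higher and 4.81% had groups apart with hypoxia lower (over all genes in the table, 4.01% and 2.82%). These shares are set beside the 6 and 0 of 8 and not read further, since the genes were chosen on the same difference. In bulk RNA, less RNA per cell and fewer cells of a type cannot be told apart.

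**Figure D1:**
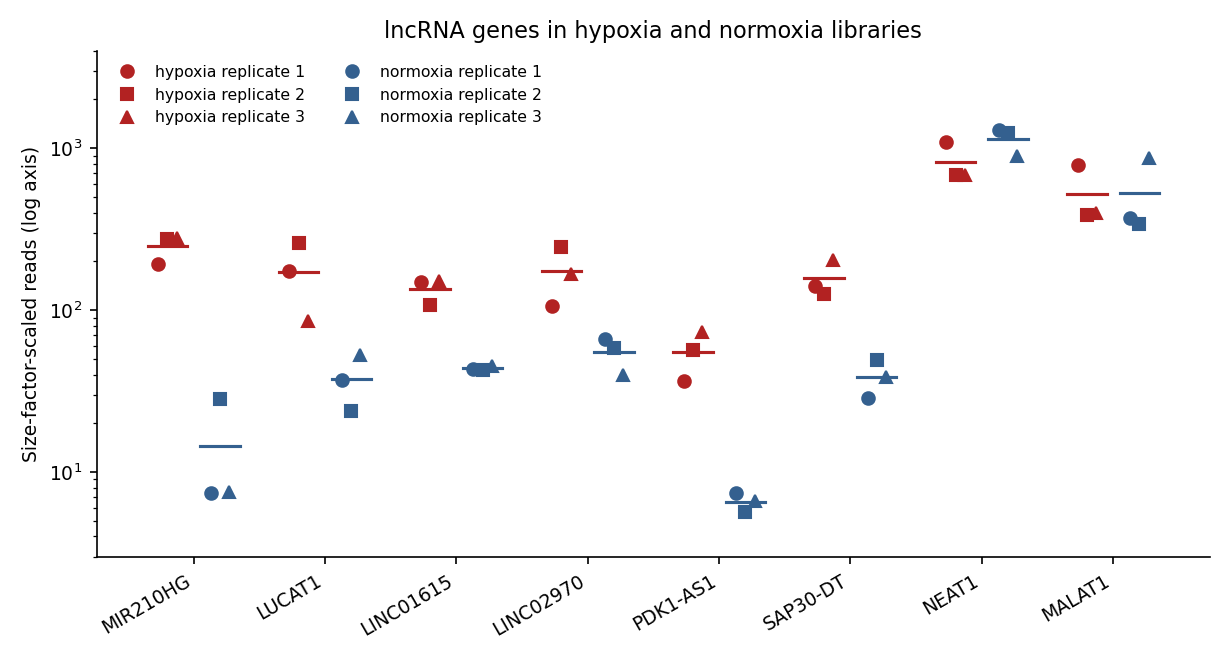
Scaled reads (log axis) of the 8 lncRNA genes in 3 hypoxia libraries (red, left) and 3 normoxia libraries (blue, right), with symbols for the replicate and a line at the group mean. The 3 hypoxia values lie above the 3 normoxia values for MIR210HG, LUCAT1, LINC01615, LINC02970, PDK1-AS1 and SAP30-DT, and the groups overlap for NEAT1 and MALAT1.

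MIR210HG (ENSG00000247095) occupies chr11:565660-568457, minus strand, in GENCODE 29 (GRCh38), the release used for all gene positions and lengths in the text, which are not the authors' coordinates. It had 192, 277 and 279 scaled reads in hypoxia replicates 1, 2 and 3, against 7.41, 28.4 and 7.52 in normoxia replicates 1, 2 and 3. The lowest hypoxia library stood 6.75 times above the highest normoxia library, and normoxia replicate 2 was well above the other normoxia libraries. The means were 249 ± 49.6 and 14.4 ± 12.1 (SD, n = 3 each), a ratio of 17.2, and the log2 difference of log2(FPKM + 0.1) was 3.93 (SE 0.46). This was the highest log2 difference of the 1143 lncRNA genes. It stood at 2.38 with a pseudocount of 1, where that of SAP30-DT was 1.26 against 1.90 with 0.1.

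How many of the 8 genes a test over all genes would pass was counted beside the share of all genes, and nothing is read from these counts, since the genes were chosen on the same difference. The limma threshold, an adjusted p below 0.05, was passed by 1 of the 6 that reached the filter on low values (MIR210HG), beside 0.0977% of the 10237 genes tested and 0.197% of the 507 lncRNA genes tested. MIR210HG reached that filter, an FPKM of at least 1 in 3 libraries, only through its 3 hypoxia libraries, and SAP30-DT through these and 1 normoxia library, while LUCAT1 and PDK1-AS1 did not reach it. With no filter the count was 0 of 8, beside 0.0181% of all genes. It was 6 of 8 by DESeq2, beside 0.402%, and 0 of 8 by edgeR, beside 0.0674%. Without normoxia replicate 1, and without each hypoxia library, MIR210HG was not past the threshold, with log2 differences of 3.68, 4.11, 3.85 and 3.84.

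The row of the miR-210 hairpin gene, MIR210, which shares no exon with MIR210HG in GENCODE 29, held 1, 3 and 6 reads in the hypoxia libraries and 0, 2 and 0 in the normoxia libraries. Reads this few overlap between the groups, and poly(A) libraries do not measure the mature miRNA.

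PDK1-AS1 (ENSG00000225205), antisense to the start of PDK1, occupies chr2:172480840-172556596, minus strand. It had 36.3, 57.0 and 73.2 scaled reads in hypoxia replicates 1, 2 and 3, against 7.41, 5.68 and 6.58 in the normoxia libraries. Every hypoxia library was at least 4.90 times above every normoxia library, although hypoxia replicate 1 was the lowest of its group, as it was for MIR210HG. The means were 55.5 ± 18.5 and 6.56 ± 0.87 (SD, n = 3 each), a ratio of 8.46, from 187 reads in all.

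SAP30-DT (ENSG00000272870) starts 477 bases inside SAP30 and runs the other way, so that the gene bodies overlap. It occupies chr4:173363780-173370446, minus strand. It had 140, 125 and 205 scaled reads in the hypoxia libraries and 28.6, 49.2 and 38.6 in the normoxia libraries. The means were 157 ± 42.5 and 38.8 ± 10.3, a ratio of 4.04, and the lowest hypoxia library was 2.55 times the highest normoxia library. Its longest transcript has the lowest GC content of the 8 genes, 38.4%.

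LUCAT1 (ENSG00000248323), known as a lung cancer associated transcript, occupies chr5:91054834-91314547, minus strand. It had 174, 259 and 85.6 scaled reads in the hypoxia libraries and 37.1, 23.7 and 52.7 in the normoxia libraries. Its groups were apart by a ratio of 1.62 between the nearest libraries, and hypoxia replicate 3 was well below the others. The means were 173 ± 86.8 and 37.8 ± 14.5, a ratio of 4.58. Its annotated exons add up to 16538 bases in 26 blocks, and its value per length was the lowest of the 8 genes in both groups.

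LINC02970 (ENSG00000273812), named BX640514.2 in GENCODE 29, occupies chr20:62596732-62603115, minus strand. It had 107, 246 and 167 scaled reads in the hypoxia libraries and 66.7, 58.7 and 39.5 in the normoxia libraries. The means were 173 ± 69.7 and 55.0 ± 14.0 (SD, n = 3 each), a ratio of 3.15. The nearest libraries of the groups differed by a ratio of 1.60, the closest approach among the 6 genes with groups apart. LINC01615 (ENSG00000223485), at chr6:169158092-169162924, minus strand, was the steadiest gene in normoxia. It had 148, 108 and 151 scaled reads in hypoxia and 43.4, 42.6 and 45.1 in normoxia. The means were 136 ± 24.2 and 43.7 ± 1.29, a ratio of 3.10, and the nearest libraries differed by a ratio of 2.39.

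Per length, the order of levels was not the order of differences. On the FPKM scale (scaled reads set against exon length and library total) LINC02970 was highest in hypoxia at 15.5 ± 6.24, followed by LINC01615 at 7.21 ± 1.29 and MIR210HG at 6.01 ± 1.20. SAP30-DT at 3.52 ± 0.95, MALAT1 at 3.33 ± 1.45 and NEAT1 at 2.02 ± 0.58 came next, then PDK1-AS1 at 1.27 ± 0.42 and LUCAT1 at 0.586 ± 0.294 (SD, n = 3). Neighbours in this order that differed by less than the larger of their SDs were LINC01615 and MIR210HG, SAP30-DT and MALAT1, and MALAT1 and NEAT1. In normoxia LINC02970 was again highest at 4.92 ± 1.25, while MIR210HG at 0.349 ± 0.292 stood near PDK1-AS1 at 0.150 ± 0.020 and LUCAT1 at 0.128 ± 0.049.

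**Figure D2:**
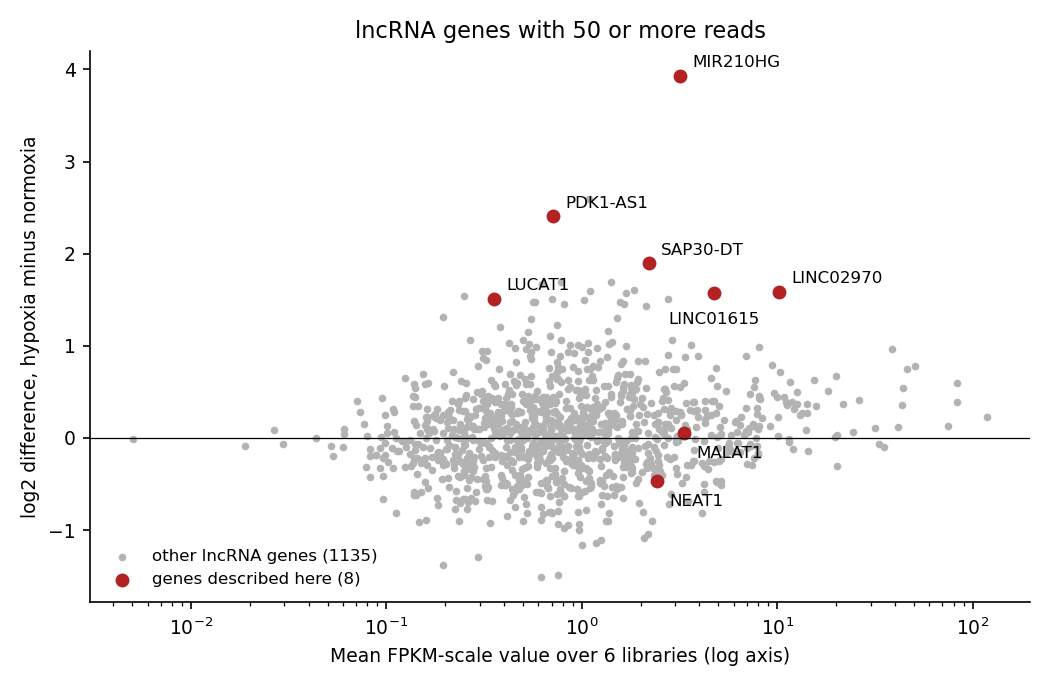
The log2 difference between hypoxia and normoxia (fit with no filter on low values) against the mean FPKM-scale value over 6 libraries (log axis) for the 1143 lncRNA genes with at least 50 reads, the 8 genes in red. MIR210HG lies highest at 3.93, PDK1-AS1, SAP30-DT, LINC02970, LINC01615 and LUCAT1 lie between 2.41 and 1.51, and NEAT1 and MALAT1 lie within the cloud of other lncRNA genes.

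The 3 tested genes whose log2 values over the 6 libraries were most like those of MIR210HG were coding genes. SPAG4, a protein of the nuclear envelope, had a Pearson r of 0.98, C4orf3 a Pearson r of 0.98 and PFKFB4, a kinase and phosphatase that sets fructose 2,6-bisphosphate, a Pearson r of 0.98. The 6 points share their libraries and fall into the 2 groups, so these values mostly describe the difference between the groups. SAP30-DT, at an r of 0.97, was place 6 of all tested genes, LINC01615 place 45 and LINC02970 place 79. Nothing is read from these places, since the genes were chosen on the same difference.

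The neighbouring coding genes were taken by position and not by value, as every overlapping coding gene and the nearest one with a row in the table on each side. Values are given for 17 of them, of which 11 were tested, and limma called 0. At an unadjusted p under 0.05 there were 3 (RASSF7, ARRDC3 and SAP30), beside 2.69% of all genes tested, DESeq2 called 2 (ARRDC3 and PDK1) and edgeR called 0. Every hypoxia library was above every normoxia library for 4 of the 17, RASSF7, ARRDC3, SAP30 and PDK1, and for 3 of the 11 tested, beside 4.77% of all genes tested.

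PDK1 (ENSG00000152256), at chr2:172555373-172608669, plus strand, had 205, 112 and 141 scaled reads in hypoxia and 33.9, 31.3 and 52.7 in normoxia. The ratio of means was 3.89. PDK1 fell below the filter on low values, and the fit with no filter gave 1.43 on the log2 scale (95% interval 0.55 to 2.30), with an adjusted p of 1.00 by limma. DESeq2 gave an adjusted p of 0.00254, the lowest of its 4 alternatives, which reached 1.00. PDK1-AS1 gave 17.7, 50.9 and 52.0 reads per 100 reads of PDK1 in hypoxia replicates 1, 2 and 3, against 21.9, 18.2 and 12.5 in the normoxia libraries. In hypoxia replicate 1 this ratio lay within the normoxia range, and in the other two hypoxia libraries it was above it. Exons of the pair share 445 bases on opposite strands, 18.2% of the exon length of PDK1-AS1. Whether strand was used in counting is not stated, and without it reads of the shared bases cannot be told apart. PDK1-AS1 also overlaps ITGA6, an integrin subunit, by 52 bases of exon, and ITGA6 averaged 2239 ± 511 in hypoxia and 2420 ± 392 in normoxia.

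SAP30 (ENSG00000164105), at chr4:173369969-173377532, plus strand, had 604, 515 and 617 scaled reads in hypoxia and 287, 359 and 275 in normoxia. Its ratio of means was 1.89 and limma put the log2 difference at 0.92 (95% interval 0.43 to 1.40) with an adjusted p of 0.618. SAP30-DT shares no exon base with SAP30, and it gave 23.2, 24.3 and 33.3 reads per 100 reads of SAP30 in hypoxia against 9.96, 13.7 and 14.0 in normoxia, so its share was above the normoxia range in every hypoxia library. The genes farther out, HMGB2 and FBXO8, had log2 differences of 0.17 and 0.33 with intervals that included 0.

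ARRDC3 (ENSG00000113369), an arrestin-domain protein that marks membrane receptors for ubiquitination, lies 54177 bases from LUCAT1 on chromosome 5. It had 952, 1170 and 1562 scaled reads in hypoxia and 158, 215 and 425 in normoxia, with groups apart and a ratio of means of 4.62, close to the 4.58 of LUCAT1. On the log2 scale it was higher by 2.26 (95% interval 1.37 to 3.15), with an adjusted p of 0.163 by limma. DESeq2 gave an adjusted p of 5.46e-05, and over the 16 alternatives it ran from 5.46e-05 to 0.948. The 4 passes were DESeq2, the replicate block, the GC correction and the fit without normoxia replicate 3 (adjusted p = 0.0197 by limma). Within the hypoxia group the genes did not go together, since ARRDC3 was highest and LUCAT1 lowest in replicate 3. LUCAT1 gave 18.3, 22.2 and 5.48 reads per 100 reads of ARRDC3 in hypoxia and 23.5, 11.0 and 12.4 in normoxia, values that overlap. ADGRV1, whose gene body LUCAT1 overlaps with no shared exon, averaged 5.67 ± 1.34 and 5.54 ± 0.21. LYSMD3, on the far side, had a log2 difference of -0.02 that turned positive in 3 alternatives. Normoxia replicate 3 held 649 scaled reads of LYSMD3, against 128 and 153 in the other two normoxia libraries, and without it the log2 difference was 0.70.

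RASSF7 (ENSG00000099849), of the Ras association domain family, ends 1639 bases from MIR210HG. It had 1371, 1777 and 1513 scaled reads in hypoxia and 1034, 831 and 827 in normoxia, which is 0.79 on the log2 scale (95% interval 0.31 to 1.27) and did not pass limma (adjusted p = 0.941). PHRF1, a PHD and RING finger protein 8029 bases away on the other side, averaged 1698 ± 625 and 1905 ± 453 (log2 difference -0.20, 95% interval -0.91 to 0.51). MIR210HG gave 14.0, 15.6 and 18.4 reads per 100 reads of RASSF7 in hypoxia against 0.717, 3.42 and 0.910 in normoxia.

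The nearest coding gene of LINC02970 with reads was SLCO4A1, an organic anion transporter 39330 bases away, at 1741, 4797 and 2204 scaled reads in hypoxia and 2245, 1600 and 1067 in normoxia. SLCO4A1 and LINC02970 were both highest in hypoxia replicate 2, but the groups of SLCO4A1 overlapped, and limma gave 0.75 on the log2 scale (95% interval -0.22 to 1.73) with an adjusted p of 1.00. LINC02970 gave 6.13, 5.12 and 7.59 reads per 100 reads of SLCO4A1 in hypoxia against 2.97, 3.67 and 3.70 in normoxia. THBS2, a matricellular thrombospondin 52856 bases from LINC01615, averaged 5.53 ± 5.32 and 6.09 ± 3.13 scaled reads, far below LINC01615 itself. AFDN, the nearest on its other side, stood at -0.09 on the log2 scale (95% interval -0.80 to 0.63), positive in 2 of 16 alternatives. GATA5, DLX2 and RAPGEF4, the other neighbours, averaged at most 16.3 scaled reads in hypoxia and 16.8 in normoxia.

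**Figure D3:**
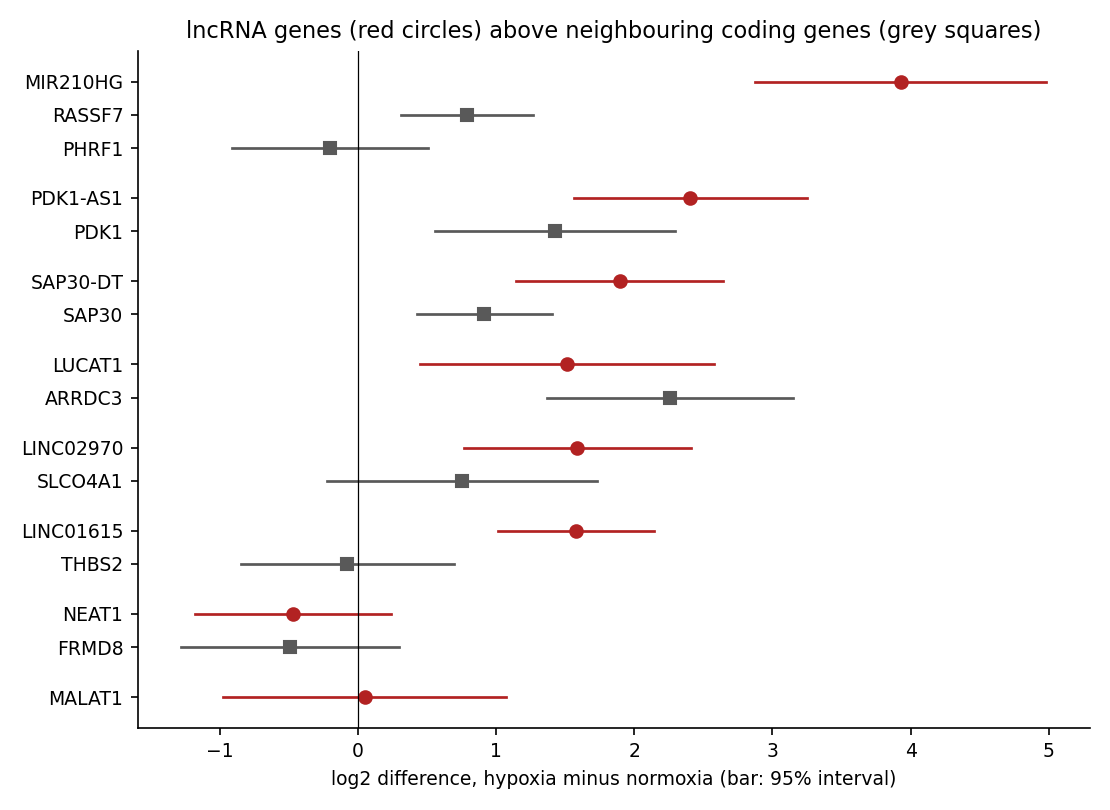
The log2 difference between hypoxia and normoxia with its 95% interval for each lncRNA gene (red circle) and, under it, neighbouring coding genes where shown (grey square), from limma; LUCAT1, PDK1-AS1, PDK1 and THBS2 are from the fit with no filter on low values. ARRDC3, at 2.26, lies above LUCAT1 at 1.51, while RASSF7, PDK1, SAP30 and SLCO4A1 lie below MIR210HG, PDK1-AS1, SAP30-DT and LINC02970. This scale understates differences of weakly expressed genes such as LUCAT1, and DESeq2 gave 2.21 for ARRDC3 and 2.19 for LUCAT1.

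**Figure D4:**
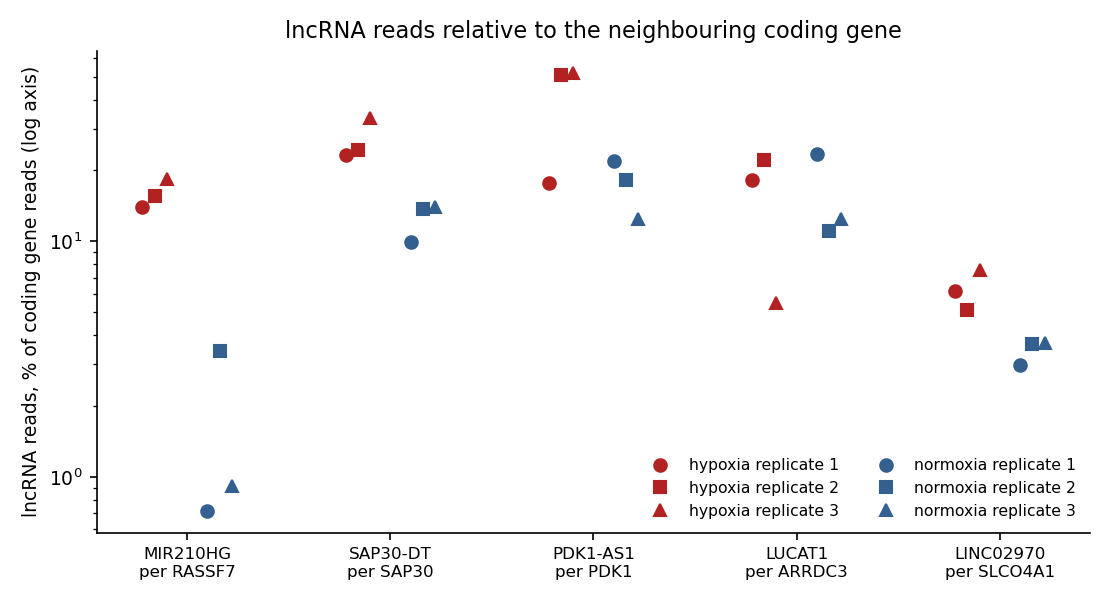
Reads of 5 lncRNA genes as a percentage of the reads of a neighbouring coding gene in the same library (log axis, not corrected for length), hypoxia libraries in red on the left and normoxia libraries in blue on the right. The groups are apart for MIR210HG per RASSF7, SAP30-DT per SAP30 and LINC02970 per SLCO4A1, and overlap for PDK1-AS1 per PDK1 and LUCAT1 per ARRDC3.

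NEAT1 and MALAT1, the most abundant of the 8 by reads, occupy chr11:65422774-65445540 and chr11:65497688-65506516, both plus strand. NEAT1 (ENSG00000245532) had 1095, 683 and 688 scaled reads in hypoxia replicates 1, 2 and 3, against 1293, 1236 and 890 in the normoxia libraries. Only hypoxia replicate 1 reached into the normoxia range. The means were 822 ± 236 and 1140 ± 218 (SD, n = 3 each), a ratio of 0.722, and the log2 difference of -0.47 (SE 0.31, 95% interval -1.18 to 0.24) stayed negative in all 16 alternatives. FRMD8, the coding gene 9249 bases before NEAT1, had a ratio of 0.714 and groups that overlapped, with hypoxia replicate 2 above 1 of the normoxia libraries and below the other two.

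MALAT1 (ENSG00000251562) varied more within each group than between the group means. It had 789, 388 and 398 scaled reads in the hypoxia libraries, against 372, 338 and 869 in the normoxia libraries, so that 1 library of each group stood far above the other two. The means were 525 ± 229 and 526 ± 297, and the log2 difference of 0.05 (SE 0.44, 95% interval -0.97 to 1.07) was negative in 6 of 16 alternatives. Libraries also differed by GC content. For the tested genes with the lowest GC content (at most 41.6%, MALAT1 being at 40.3%), the median log2 deviation from the gene's own mean was 0.21, -0.32 and 0.17 in hypoxia replicates 1, 2 and 3 and -0.53, -0.18 and 0.68 in normoxia replicates 1, 2 and 3. The library with the highest MALAT1 was the one highest for these genes, but hypoxia replicate 3, also above 0, had low MALAT1. After a correction of each library for GC, the log2 difference was 0.03 for MALAT1, -0.50 for NEAT1, 3.96 for MIR210HG, 1.87 for SAP30-DT, 1.62 for LINC02970 and 1.56 for LINC01615.

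**Figure D5:**
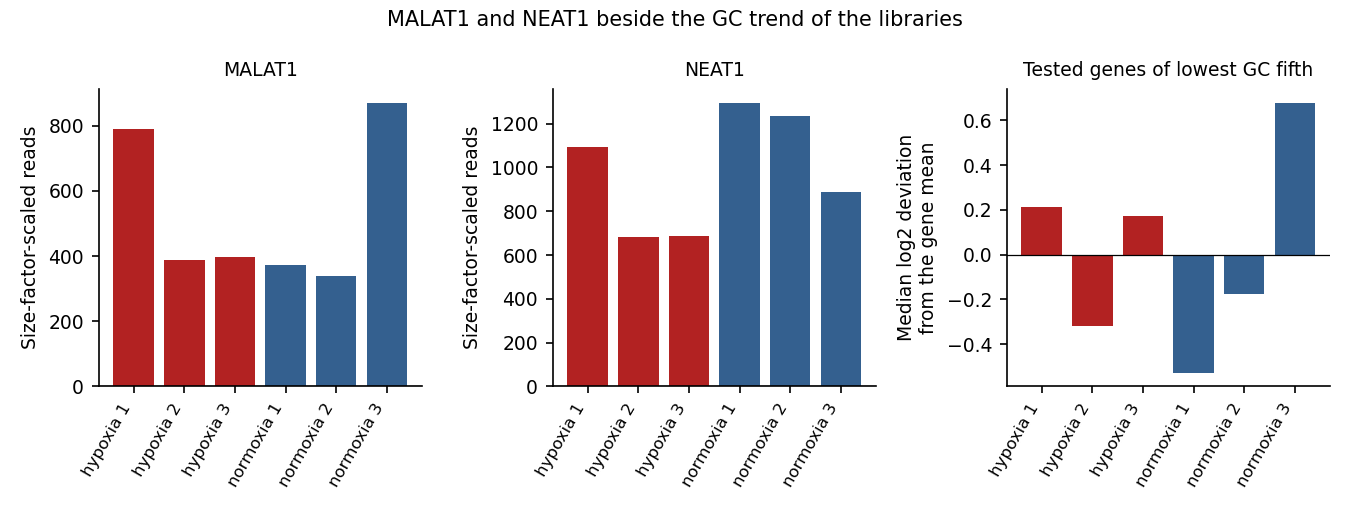
Scaled reads of MALAT1 (left) and NEAT1 (middle) in each library, and the median log2 deviation from the gene mean of the tested genes with a GC content of at most 41.6% (right), hypoxia libraries in red and normoxia libraries in blue. MALAT1 is high in hypoxia replicate 1 (789) and normoxia replicate 3 (869), while NEAT1 is highest in normoxia replicates 1 (1293) and 2 (1236), followed by hypoxia replicate 1 (1095).

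Proteins that work with these nuclear RNAs held no call. Of 20 paraspeckle proteins, which assemble on NEAT1, 19 were tested, 9 with a positive and 10 with a negative log2 difference and a median of -0.00, beside 0.00 for all genes tested. SS18L1 at -0.46 and CPSF7, a cleavage factor subunit, at -0.41 had the largest differences. Of 18 nuclear speckle proteins, mostly SR splicing factors, all were tested and 17 were negative, with a median of -0.25. SRRM1, at 626 ± 171 in hypoxia and 911 ± 105 in normoxia, and SRSF2, at 1062 ± 316 and 1507 ± 167, had the largest differences, -0.56 and -0.54, with intervals that included 0. In these 2 lists limma, DESeq2 and edgeR called 0, and 0 genes had an unadjusted p under 0.05.

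Of 20 genes reported as miR-210 targets, 17 were tested, 9 positive and 8 negative, with a median of 0.05. Limma, DESeq2 and edgeR called 0, and 1 had an unadjusted p under 0.05. That gene was EFNA3, an ephrin ligand, which is also on the list of coding HIF targets used below. Its mean was 245 ± 33.4 in hypoxia and 105 ± 36.1 in normoxia, 1.25 higher on the log2 scale (95% interval 0.53 to 1.97), with an adjusted p of 0.821 by limma. KCMF1, a ubiquitin ligase, was second at 0.49.

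Lists of other genes known as lncRNA genes linked to hypoxia, as microRNA hosts or from endothelium gave no call. Of 40 symbols for lncRNAs linked to hypoxia, 30 genes had a row and 14 were tested, 11 of them positive with a median log2 difference of 0.31, beside 0.13 for all 507 lncRNA genes tested. Limma, DESeq2 and edgeR called 0, and HIF1A-AS3 and GAS5 had an unadjusted p under 0.05. HIF1A-AS3, antisense at the HIF1A locus, averaged 22.2 ± 4.29 and 9.26 ± 8.27 with a log2 difference of 1.45, and SNHG1, a snoRNA host, 962 ± 464 and 596 ± 115 with 0.60. Of 24 other microRNA host genes, 6 were tested with a median of 0.09, and MIR31HG at 0.56 and MIR1915HG at 0.33 had the largest differences, the second of which is annotated as protein coding in GENCODE 29 and turned negative without normoxia replicate 3. The 3 tools called 0, and 0 had an unadjusted p under 0.05. Of 15 lncRNA genes described in endothelium, 6 were tested with a median of 0.15. GAS5, at 3379 ± 529 and 2315 ± 386, and HHIP-AS1, at 313 ± 32.4 and 223 ± 28.7, had the largest differences, 0.55 and 0.49. Here too the 3 tools called 0, with 1 gene, GAS5, at an unadjusted p under 0.05.

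PDK1-AS1 and SAP30-DT lie beside HIF target genes, and most other lncRNA genes in such places had few reads. Within 5000 bases of 60 coding genes known as HIF targets lay 25 other lncRNA genes with a row in the table, and 21 of them averaged under 10 scaled reads in both groups. Only RAB11B-AS1, next to ANGPTL4, was tested, at 61.9 ± 15.2 and 46.1 ± 14.7 (log2 difference 0.43, 95% interval -0.37 to 1.23). Limma did not call it, nor was its unadjusted p under 0.05, and DESeq2 and edgeR called 0 of the 25. In the limma fit with no filter, 95% intervals of some genes with few reads left out 0, in both directions. Examples are GAPDH-DT (0.84 to 2.98, adjusted p = 0.933) and HK2-DT (-1.76 to -0.12). Hypoxia was higher without overlap for 3 (GAPDH-DT, RORA-AS1 and ENSG00000256006, at no more than 4.15 scaled reads in any library) and lower for 2, beside 4.01% and 2.82% of all genes in the table. HK2-DT, divergent from the hexokinase gene HK2, was among the 2 that were lower, with 17.6, 9.33 and 12.4 scaled reads in hypoxia against 22.2, 23.7 and 35.7 in normoxia, while HK2 itself had a ratio of means of 4.38. ADM-DT had 1.04, 8.30 and 6.65 scaled reads in hypoxia against 0, 1.89 and 0 in normoxia, beside a ratio of 5.20 for ADM.

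Over the whole table, libraries held 17226736 to 18652704 reads assigned to genes. Of the 60 coding HIF targets 53 were tested, all had positive log2 differences with a median of 1.26, and 8 passed limma (1 to 12 with 1 library left out), 27 DESeq2 and 7 edgeR. The 4 with the largest log2 differences of the 8 were ANGPTL4, a secreted inhibitor of lipoprotein lipase, at 4.91, PFKFB4 at 3.62, BNIP3, a mitophagy receptor, at 3.47, and the glucose transporter SLC2A1 at 2.94. Summed endothelial markers were 88475 to 200891 scaled reads in hypoxia and 82624 to 153574 in normoxia, with 13 of 15 tested, 11 positive and 2 negative with a median log2 difference of 0.07. CLDN5, averaging 2.05 and 2.40, and EMCN, averaging 0.346 and 2.32, were near absent. Epithelial markers summed to 48517 to 79324 and 55498 to 89056, most of them from the keratins KRT7, KRT8 and KRT18. Fibroblast and mural markers summed to 466 to 507 and 339 to 685, and leukocyte markers to 40.4 to 99.8 and 26.3 to 108. Limma called 0 genes of these 4 lists, as did DESeq2 and edgeR, and TEK was the 1 gene with an unadjusted p under 0.05.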

How the data were processed

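Polyadenylated RNA of EA.hy926 cells was sequenced from libraries made with a NEBNext Ultra RNA kit, per the labels' protocols. Per the submitters' processing notes, CASAVA, HISAT2 2.0.5 and featureCounts 1.5.0-p3 were used, with no order or settings. They also name the mouse build mm9, which cannot apply to human Ensembl identifiers. For the human build, annotation and strand setting, nothing is given in the sources used here. The signal the authors deposited, in a table named for FPKM, is whole read counts per gene divided by 1 size factor per library, without division by length: 100% of values were whole multiples of 1 step per library, within 0.05 of a step. Reads were recovered by dividing by the step. All 22153 identifiers were in GENCODE 29, and 21988 had a symbol.

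The signal was put on an FPKM scale with GENCODE 29 exon length and the mean library total. Genes at 1 or more in 3 or more libraries were fitted with limma 3.58.1 (R 4.3.3) on log2(FPKM + 0.1), group as the only term, with trend and robust variance, two-sided, with Benjamini-Hochberg adjustment. Fold changes on this scale understate those of weakly expressed genes. LUCAT1, PDK1-AS1 and other genes below the filter have log2 values from the same fit with no filter. Alternatives were other pseudocounts, filters and scalings, leaving out each library, a replicate block, a GC correction, and DESeq2 1.42.0 and edgeR 4.0.16 on recovered reads. The fit was tested on simulated counts. The genes and lists, the minimum of 50 reads and the 14 listed lncRNA genes were chosen with earlier results of these data known. Named genes are the 8 genes, their neighbours, up to 4 called genes or the 2 with the largest differences per list, every lncRNA gene called, and the 3 genes most like MIR210HG; 1 neighbouring gene is not reported here. Motif and sequence data are from RefSeq (GRCh38.p14).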

Additional observations from a re-analysis of the deposited data

How the results depend on the processing

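The count of genes called by limma was 10 and went to 4 with no filter, 19 with the replicate block, 22 after the GC correction, 58 by DESeq2, and 1 to 20 when 1 library was left out (1 without hypoxia replicate 3, 20 without normoxia replicate 3). The counts of lncRNA genes called and of the 8 genes called, which the choice of genes bears on, were both 1 and went to 0 with a pseudocount of 0.01, with no filter, when scaled by library totals and by edgeR, to 6 by DESeq2, and to 0 to 1 when 1 library was left out. The 8 HIF targets called went to 2 with no filter, 14 with the replicate block, 14 after the GC correction, 27 by DESeq2 and 1 to 12 when 1 library was left out. The 0 neighbouring coding genes called became 1 with the replicate block, 1 after the GC correction, 2 by DESeq2 and 0 to 1 when 1 library was left out. Of the 8 genes, 0 were lower without overlap, and 0 to 1 when 1 library was left out, this being NEAT1 without hypoxia replicate 1 or without normoxia replicate 3. The log2 differences of the 6 genes with groups apart kept their sign in every alternative in which they had a value. With another pseudocount or filter, or 1 library left out, this was fixed in advance, since all their hypoxia values exceed all their normoxia values.

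Signs turned for genes near 0. LYSMD3 went to 0.015 with TMM scaling. With 1 library left out, LYSMD3 ran from -0.44 to 0.70, AFDN from -0.32 to 0.064, ITGA6 from -0.30 to 0.0066, HMGB2 from -0.11 to 0.53 and MIR1915HG from -0.044 to 0.56, and the cause was not tested. Whether the replicate numbers pair the samples is not known. Same-numbered libraries had correlations of deviations of -0.40, 0.24 and 0.22, and not every library correlated best with its own number. These values cannot decide it, since each group has 3 libraries and the libraries also differ by GC content. Since each group has 3 libraries, a gene that missed the threshold may still differ, and leaving out 1 library tests fewer samples.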

Other observations

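Down to the place of LUCAT1 there were 14 lncRNA genes ranked by log2 difference toward hypoxia, of which 6 are described above. The other 8 of these, named here after their values were seen and given with no test, were weakly expressed. LINC02932 had the largest log2 difference of the 8, 2.59, at 38.3 ± 8.89 scaled reads in hypoxia and 6.85 ± 7.12 in normoxia (SD, n = 3 each). THBS2-AS1, antisense to THBS2 on chromosome 6 and thus near LINC01615, averaged 17.0 ± 4.02 and 4.92 ± 3.81, with groups apart. LINC01275 averaged 52.7 ± 19.4 and 17.9 ± 13.3, PPP1R14B-AS1 26.7 ± 7.17 and 8.96 ± 4.65, and NCKAP5-AS2 24.3 ± 7.78 and 7.57 ± 4.12, each with groups apart. MIR181A2HG, another microRNA host gene, averaged 14.5 ± 8.05 and 3.94 ± 2.86, and ENSG00000261051 averaged 15.6 ± 7.19 and 3.03 ± 2.73, also with groups apart. LINC01775, at 12.6 ± 4.41 and 6.02 ± 5.24, was the 1 gene of these 14 whose groups overlapped.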
